A study of Drosophila melanogaster with 3 samples.

Results

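The regions occupied by green fluorescent protein (GFP)-tagged CG10209 were examined by chromatin immunoprecipitation and sequencing (ChIP-seq) at 10 genes that pattern the dorsoventral axis of the Drosophila melanogaster embryo. The genes were chosen by name, as twi, sna, dpp, sog, zen, rho, tld, brk, tin and vnd, and all 10 matched 1 of the 13968 protein coding genes of the annotation. A region belonged to a gene when its summit lay in the gene or within 10 kb of it in the dm6 assembly. By this rule 25 of the 6307 peaks of the authors' IDR list lay at these genes. IDR, the irreproducible discovery rate, measures how well replicates agree in rank.

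Per the labels, the series is 1 group of 3 biological replicates of whole embryos of mixed sex, 0 to 24 h old, from a line carrying CG10209 with GFP at its C-terminus, precipitated with an antibody against GFP. Which promoter drives the tagged gene was not given in the sources used here, and no untagged line was analysed here. Per the text deposited with the files, regions were called in each replicate and in the pooled replicates together with 1 further file common to all lists, taken here to be the control, with 30000 regions per list, background included. Levels are the authors' signal value (narrowPeak column 7), whose scale differs between lists, so ranks within a list are given beside it. IDR peaks run from 194.7 to 15205 (median 341), and the deposited −log10 q reached 2 in 4296 regions of replicate 1, 9183 of replicate 2 and 9015 of replicate 3. Strong occupancy in a few cells or stages and weak occupancy in many cannot be told apart in whole embryos of this age range.

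In the early embryo, a nuclear gradient of the factor Dorsal divides the axis. High Dorsal activates twi and sna, which set up the mesoderm, and intermediate to low levels allow rho, vnd, brk and sog in the neuroectoderm. Dorsally, where Dorsal is absent, dpp, tld and zen are active, and a gradient of bone morphogenetic protein (BMP) signalling by Dpp forms under the control of Sog and Tld. These decisions take place early in the age range collected.

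An IDR peak lay at 7 of the 10 genes: 7 peaks at brk, 7 at sog, 4 at dpp, 3 at zen, 2 at tin and 1 each at rho and twi. None lay at sna, tld or vnd. Among all coding genes, 67.0% had an IDR peak by the same rule, and among the 9612 coding genes between the shortest and longest of the 10 (1331 to 62952 bp), 72.0% did, so having a peak nearby is close to the background. A promoter peak, with its summit within 500 bp of an annotated start, was present at 2 of the 10, tin and brk, against 21.5% of coding genes. Counting each peak only for the gene whose start is nearest, 5 of the 10 had one (brk, sog, dpp, rho and tin), against 24.2% of coding genes. That way of counting was chosen after seeing the data, and no share for genes of like length is given for it. These shares are descriptions and were not tested.

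The peaks were unevenly spread over the 10 genes. Together their windows cover 0.359 Mb and hold 69.7 IDR peaks per Mb, compared with 45.9 over the 7 chromosome arms and 50.7 over the windows of all coding genes. Without brk alone the density is 53.7 per Mb, and without brk and sog the remaining 8 windows hold 38.6 per Mb. Those 8 include twi, whose window is long because of 1 far upstream start. Measuring twi from its short transcripts raises the density of all 10 windows to 83.9 per Mb. That value includes brk and sog. A density without them is not given for twi measured in this way, so 83.9 and 38.6 per Mb are not to be compared. brk had 7 peaks in a window of 23.2 kb, and 82 of the 8646 coding genes with a window within 10% of that length (0.948%) had 7 or more. For sog, 30 of 269 such genes (11.2%) had 7 or more, and for dpp 84 of 258 (32.6%) had 4 or more. At twi the 1 peak in 83.0 kb compares with a median of 3 in 99 windows of like length. The far upstream start sets that length, and twi was not compared with windows like that of its short transcripts. Windows of neighbouring genes overlap, so the genes in these comparisons are not independent.

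**Figure D1:**
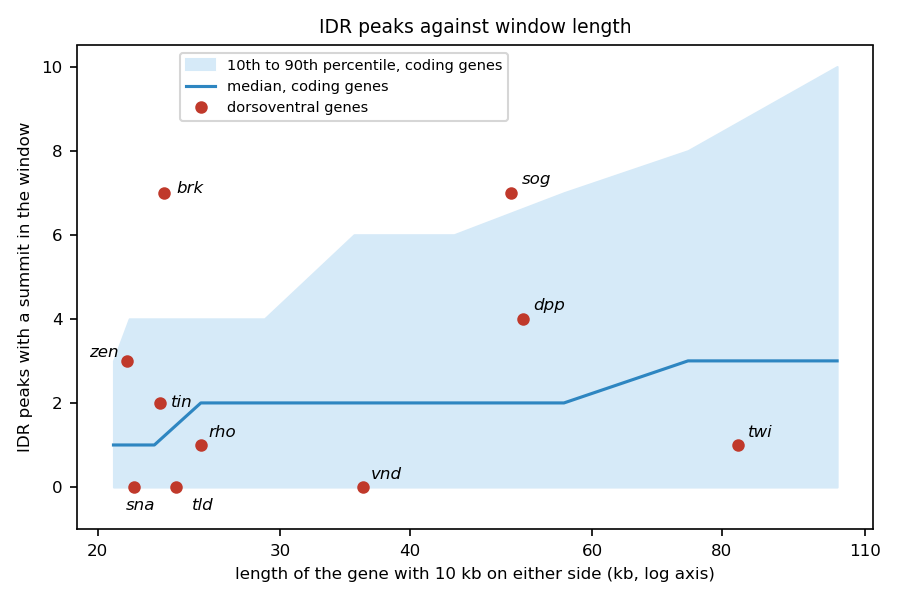
Number of IDR peaks (y axis) against the length of the gene with 10 kb on either side (x axis, kb, log scale). Red points are the 10 dorsoventral genes, the line is the median and the band the 10th to 90th percentile of coding genes in bins of length; brk, with 7 peaks in 23.2 kb, lies above the band, and sna, tld and vnd have 0.

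The sequence at the summits that the account turns on is shown from the Release 6 genome, 5′ to 3′ on the strand of the gene, 100 bases either side of the summit. They are the highest peaks of brk, tin, sog and dpp, the zen peak at the start of bcd, and the vnd start region just outside the IDR list. Capitals mark letters that match one of the motifs or words searched (listed with their frequencies after the replicate ranks): the Tinman word at dpp and the DNA replication-related element (DRE) at vnd. In the other 4 windows 0 of the searched words were found.
brk, highest peak (chrX:7307123-7307323, plus strand): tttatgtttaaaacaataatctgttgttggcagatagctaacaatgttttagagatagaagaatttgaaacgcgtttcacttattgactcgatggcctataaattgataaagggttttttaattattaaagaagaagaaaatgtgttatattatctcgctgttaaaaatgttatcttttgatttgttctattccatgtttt
tin, promoter peak (chr3R:21378677-21378877, plus strand): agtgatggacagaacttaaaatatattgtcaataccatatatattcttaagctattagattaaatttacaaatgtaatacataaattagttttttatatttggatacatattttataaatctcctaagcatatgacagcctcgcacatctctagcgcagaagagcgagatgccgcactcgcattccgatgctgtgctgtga
zen, peak at the start of bcd (chr3R:6759539-6759739, minus strand): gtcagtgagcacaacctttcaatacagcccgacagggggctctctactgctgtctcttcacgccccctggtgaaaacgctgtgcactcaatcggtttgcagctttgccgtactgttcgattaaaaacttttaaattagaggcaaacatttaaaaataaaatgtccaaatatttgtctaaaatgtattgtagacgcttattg
sog, highest intronic peak (chrX:15619400-15619600, minus strand): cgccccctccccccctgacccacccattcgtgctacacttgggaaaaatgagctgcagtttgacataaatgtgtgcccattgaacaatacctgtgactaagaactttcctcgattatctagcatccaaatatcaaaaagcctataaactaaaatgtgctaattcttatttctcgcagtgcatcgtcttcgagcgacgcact
dpp, intronic peak (chr2L:2433551-2433751, plus strand): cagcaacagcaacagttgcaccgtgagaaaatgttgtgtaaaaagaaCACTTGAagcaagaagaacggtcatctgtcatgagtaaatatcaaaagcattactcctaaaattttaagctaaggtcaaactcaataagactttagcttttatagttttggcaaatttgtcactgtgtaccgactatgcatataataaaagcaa
vnd, region at the gene start (chrX:581956-582156, plus strand): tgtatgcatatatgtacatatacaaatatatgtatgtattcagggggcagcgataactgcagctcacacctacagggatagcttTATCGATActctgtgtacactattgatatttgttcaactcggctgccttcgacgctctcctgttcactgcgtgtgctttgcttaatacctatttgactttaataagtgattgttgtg

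brk encodes Brinker, a repressor of genes that Dpp signalling activates, and had the highest peak of the 10 genes. Its signal value was 1856, rank 148 of 6307, on an interval of 998 bp (X, 7306691 to 7307688) that carries a further summit of signal 903 (rank 679). The summits lie 716 bp and 491 bp upstream of the only annotated start, so the higher one falls outside the 500 bp promoter range. In the replicates the region had a signal of 762 (rank 93) in replicate 1, 494 (rank 158) in replicate 2 and 617 (rank 209) in replicate 3. It was thus the highest-ranked of the 25 peaks in each replicate. Its summit was 724 bp from the start in replicate 1, 572 bp in replicate 2 and 582 bp in replicate 3, so none of these lies within 500 bp. Within that range replicate 1 had a lower region of rank 4038 and replicate 2 one of rank 4869, and replicate 3 had none.

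The other brk peaks flank the gene on both sides. Upstream, summits at 2034, 3734, 6335 and 8316 bp had signal values of 480.0, 194.7, 423 and 295. The one at 3734 bp upstream is the lowest of all 6307 IDR peaks, and no top-ranked region of any replicate met it (ranks 6834, 8377 and 7268 in replicates 1 to 3). Downstream, a peak of signal 623 lay 8141 bp beyond the gene in an intron of Atg5, an autophagy gene, 4497 bp past its start. All 7 brk summits lie inside the bounds of CG1677 and of an overlapping long noncoding RNA, CR44357, so that 6 of them count as intronic and 1 as promoter. For 6 of the 7, nonetheless, the brk start was the nearest start of any gene.

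sog encodes Short gastrulation, a secreted Chordin-like protein that binds Dpp, and had 7 peaks over 40190 bp. The highest, of signal 655 (rank 1186; X, 15619365 to 15619616), lies in an intron 7040 bp past the nearer of its annotated starts. It had signals of 256 (rank 920), 165 (rank 1502) and 237 (rank 1324) in replicates 1, 2 and 3, so it stood between ranks 920 and 1502 in all 3. The next intronic peak, 3485 bp past the same start, had a signal of 399.5 and varied more, with ranks of 2302, 5606 and 1850. Further intronic summits lay at 10906 and 3201 bp from the nearest sog start, with signals of 296 and 241. Of the remaining peaks, those with signals of 291 and 257 lie 3364 and 651 bp beyond the 3′ end and the one with 239 lies 6675 bp upstream. All 7 were met by a top-ranked region (one among the 6307 highest of its list) in each replicate. Neither sog start had an IDR peak within 500 bp. The pooled regions there ranked 12437 and 12313, with −log10 q of 0.87 and 0.89.

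dpp encodes Decapentaplegic, the BMP ligand of the dorsal side. Its highest peak, of signal 638 (rank 1241; 2L, 2433517 to 2433761), lies in the first part of the gene, 5279 bp past the first start. Signals of 220 (rank 1172), 191 (rank 1159) and 209 (rank 1629) in replicates 1, 2 and 3 had summits within 3 bp of the pooled one, the closest agreement in place among the 25 peaks. The second peak, of signal 359.6, belongs by position to CG9886, whose start is 116 bp away and which lies 7658 bp upstream of dpp. Peaks of 255 and 239 lie 1697 bp upstream and 8038 bp downstream of the gene, near starts of long noncoding RNAs (1206 and 5117 bp away). Replicate 2 ranked these at 7809 and 6618, outside its top regions, and replicate 3 ranked the latter at 6916. None of the 4 dpp starts had an IDR peak, and 2 of the 4 had a pooled region within 500 bp, at ranks 23938 and 29768.

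tld encodes Tolloid, a metalloprotease that cleaves Sog and so frees Dpp. Its window held 0 IDR peaks and 1 pooled region, the fewest of the 10 genes. That region (signal 147, rank 8725, −log10 q 1.74) lies 170 bp from the start of asp, a spindle pole gene that starts near the 3′ end of tld. Replicate 1 ranked it 11476, and replicates 2 and 3 had 0 regions in the whole window. Of coding genes with windows of like length, 30.2% also had 0 IDR peaks.

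zen encodes Zerknüllt, a homeodomain protein needed for the amnioserosa, and lies in the Antennapedia complex. It had 0 regions within 500 bp of its start in any of the 5 lists, yet 3 high peaks in its window, all of them over 5 kb upstream and at the starts of other genes. The peak of signal 523 (rank 1704; 3R, 6759598 to 6759727) is 173 bp upstream of the start of bcd, which encodes the maternal anterior determinant Bicoid. Those of 805 (rank 829) and 694 (rank 1076), with summits 201 bp apart, are 319 bp from the start of the long noncoding RNA CR45593 and 265 bp from a start of Ama, which encodes the secreted immunoglobulin-type protein Amalgam. Replicate ranks were 973, 658 and 814 for the first of these, and 1195, 2443 and 1904 at bcd. With a window of 5 kb, zen had 0 IDR peaks.

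tin encodes Tinman, an NK homeodomain factor of the dorsal mesoderm and heart, and had the higher of the 2 promoter peaks. Its summit lay 200 bp upstream of the single annotated start, with a signal of 1129.6 and rank 436 (3R, 21378634 to 21378921). Signals were 255 (rank 935) in replicate 1, 409 (rank 260) in replicate 2 and 444 (rank 420) in replicate 3, with summits 1, 13 and 3 bp from the pooled one. Replicate 1 thus ranked it lowest while placing it at the same spot. Of the 3004 coding genes with a promoter peak, 371 (12.4%) had one at least this high, and 551 (18.3%) had one as high as that of brk. A second tin peak, of signal 247, is 15 bp from starts annotated for exons of mod(mdg4), a chromatin protein gene whose transcripts are joined by trans-splicing. It overlapped none of the 30000 regions of replicate 1.

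twi encodes the basic helix-loop-helix activator of the mesoderm, and sna the zinc-finger repressor that acts beside it. The only twi peak (2R, 23051748 to 23052191) had a signal of 218, rank 5572, and lies 3645 bp beyond the 3′ end, 3504 bp from the start of Fatp2, a gene of the fatty acid transport protein family. Its signals were 73.7 (rank 4758), 60.6 (rank 7263) and 83.9 (rank 5734) in replicates 1, 2 and 3, so replicate 2 did not hold it among its top regions. At the starts of the short twi transcripts the pooled region ranked 15791, with −log10 q of 0.52, and at the far upstream start no list had a region. sna had 0 IDR peaks. Its start carried a pooled region of rank 13868 (−log10 q 0.69), ranked 25147, 8679 and 22028 in replicates 1, 2 and 3, and only replicate 2 gave it a −log10 q above 2 (2.18). The highest region of its window, of signal 166 and rank 7604, lies 8325 bp upstream, 634 bp from the start of a long noncoding RNA.

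rho encodes Rhomboid, a membrane protease that releases ligands of the epidermal growth factor receptor, and vnd an NK homeodomain factor of the ventral neuroectoderm. Both had a region at or near the start that lies close to the lower limit of the IDR list. The rho peak (3L, 1464404 to 1464847), in an intron 815 bp past the start, had a signal of 199, rank 6137 of 6307. Its replicate signals were 70.5 (rank 5016), 66.3 (rank 6364) and 81.9 (rank 5914), and without replicate 1 or without replicate 3 it was not kept, since replicate 2 ranked it just below 6307. At the rho start itself, a region 56 bp downstream ranked 6025 in replicate 3 but 19017 in replicate 2, and replicate 1 had none. The vnd region (X, 581834 to 582277) has its summit 65 bp upstream of the first start. Its pooled signal of 193.2 is 99.2% of the lowest IDR peak, at rank 6380 with −log10 q of 2.88, and the replicates ranked it 6690, 8098 and 7200. Thus the lowest brk peak (194.7) and the vnd region (193.2) stand on either side of the limit of the list.

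**Figure D2:**
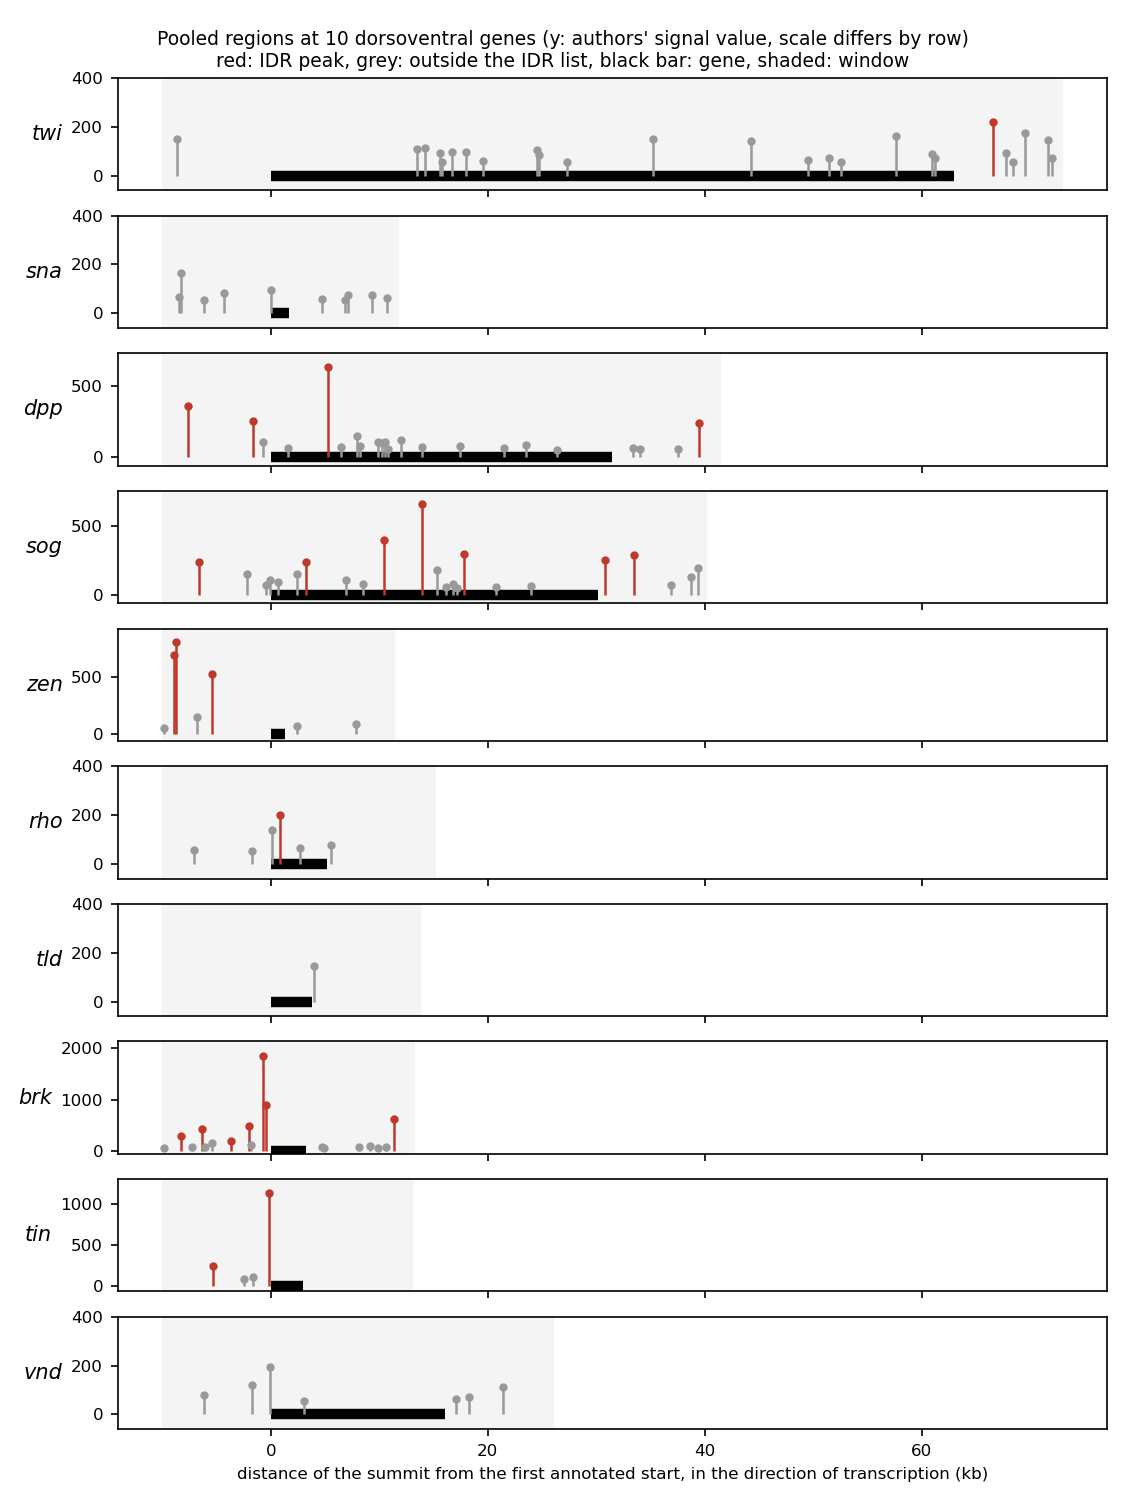
Each row is 1 gene. The x axis is the distance of a summit from the first annotated start in the direction of transcription (kb), and the y axis is the authors' signal value in the pooled list, on a scale of its own in each row; red stems are IDR peaks, grey stems other pooled regions, the black bar the gene and the shading its window. Stems of brk crowd upstream of the gene, those of sog and dpp lie inside it and on both sides, and tin has 1 tall stem at its start.

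By position, 12 of the 25 peaks lay in introns (48%), 7 at promoters (28%) and 6 between genes (24%). Over all IDR peaks the shares are 39.4%, 42.8% and 15%. The shares at the 10 genes lean on brk and sog, with 7 peaks each, and the 6 intronic peaks of brk lie in introns of other genes. Of the 7 promoter peaks only the 2 at tin and brk lie at the start of the listed gene, the others being those at CG9886, bcd, Ama, CR45593 and mod(mdg4). Summits over 1000 bp from any start made up 16 of 25 (64%), against 46.2% of all peaks. Relative to the listed genes, 14 summits lay upstream, 6 inside and 5 downstream. The median signal was 359.6 against 341 over all IDR peaks, with 8 of the 25 in the upper quartile of all peaks (552 or more) and 7 in the lower (249 or less). In width, 14 peaks had the 444 bp that 62.4% of all peaks have, and their signals ran from 194.7 to 423, while the 9 narrower ones ran from 399.5 to 1129.6. The farthest summit inside the 10 kb limit was 8945 bp from the gene (zen, at Ama) and the nearest outside it 10545 bp (rho, near the start of stet).

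**Figure D3:**
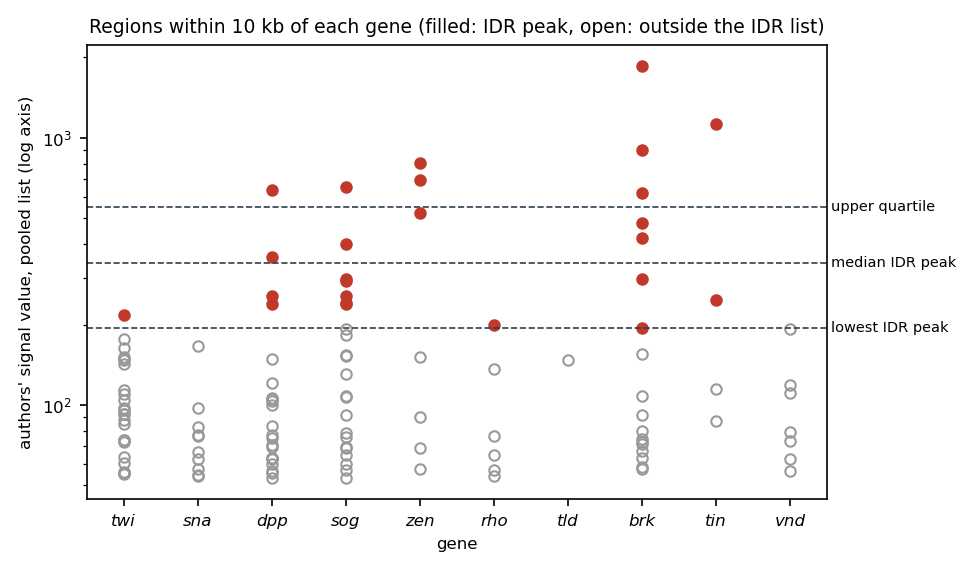
Signal value of every pooled region within 10 kb of each gene (y axis, log scale), with IDR peaks filled and other regions open. Dashed lines mark the lowest (194.7), median (341) and upper quartile (552) of all IDR peaks; brk, tin, zen, sog and dpp have peaks above the upper quartile, and the highest vnd region lies at the lowest line.

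Most starts of the 10 genes were without a peak, as were most coding genes, of which 21.5% had a promoter peak. The share over all annotated starts is not given here. Of 17 annotated starts of the 10 genes, 2 had an IDR peak within 500 bp and 11 had any pooled region there. Over the windows as a whole, 123 pooled regions were found, and 31 of them reached −log10 q of 2. Outside the IDR peaks, 6 regions of that kind remained: 2 at twi, 2 at sog, 1 at sna and 1 at vnd. The sog ones had signals of 192.5 (rank 6410), 547 bp from the start of the neighbouring gene Chsy, and 183 (rank 6760), in a sog intron. The twi ones had signals of 176 and 163, the latter 73 bp from the start of CG42741.

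Across replicates, 19 of the 25 peaks (76%) were met by a top-ranked region in all 3, compared with 66% of all IDR peaks. The 25 peaks lie on 24 distinct intervals, since 2 brk summits share 1. For these 2 the region with the nearest summit was the same in replicates 2 and 3, so they are not separate observations there. Replicate 1 met 23, replicate 2 met 20 and replicate 3 met 23. The peaks not met in all 3 were those of twi and rho, the 2 lower dpp peaks, the lowest brk peak and the second tin peak. These 6 have IDR ranks of 4586 to 6307. In replicate 1 the overlapping region with the nearest summit had −log10 q of 2 or more at 17 of the 25 peaks, and in replicates 2 and 3 at all 25. Replicate 1 also has the fewest regions of that kind in its whole list, and its part in these counts was not tested. The tin promoter peak ranked above the highest zen peak in each replicate (935 against 973, 260 against 658 and 420 against 814 in replicates 1, 2 and 3). The highest sog peak ranked above tin in replicate 1 (920 against 935) and below it in replicate 2 (1502 against 260) and replicate 3 (1324 against 420).

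**Figure D4:**
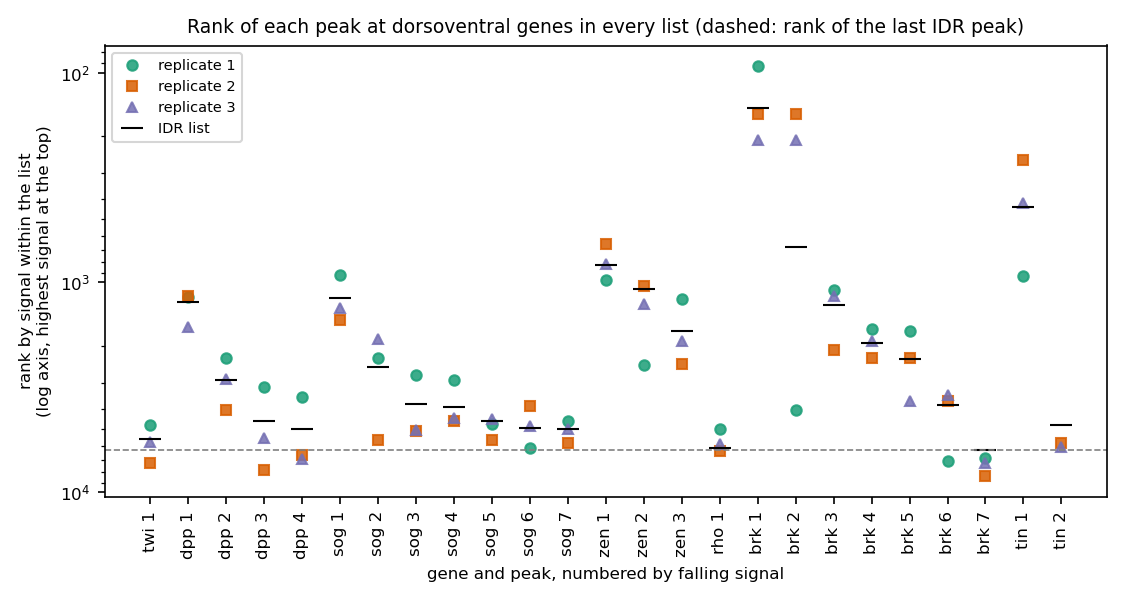
Rank by signal of the region with the nearest summit in each replicate list (coloured symbols) and in the IDR list (black bars) for the 25 peaks (x axis, gene and peak number by falling signal). The brk peaks numbered 1 and 2 share an interval and have the same region in replicates 2 and 3. The y axis is logarithmic with the highest signal at the top, and the dashed line is rank 6307; the highest brk peak ranks 93 to 209 in the replicates, and the lowest brk peak lies below the line in all 3.

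Letters of known motifs were searched in the 201 bp around each of the 25 summits, on both strands. DRE (TATCGATA), the GAGA word GAGAGAG for GAGA factor, CAGGTAG for Zelda, CACATG for Twist or Snail, GGCGCC for Brinker and GGGAAANCC with GGGNTTTCC for Dorsal were each found at 0 of 25. Over all IDR peaks they occur at 2.54%, 3.19%, 0.856%, 7.52%, 2.95% and 0.634% in the same order. Here 0 says only that these letters are not in the 25 windows, and no other word for Twist or Snail was searched. The Mad word GCCGNCG was at 1 summit, the brk peak 8316 bp upstream (3.77% of all peaks), and the Tinman word CACTTGA at 1, the dpp intronic peak (3.73%). Of words chosen with earlier results of these data known, CACTGAGA was at 1 (the sog peak of signal 296), CACTGTGC at 1 (the brk summit of signal 903) and TACACTGA at 2 (the same sog peak and the zen peak of signal 805), against 3.69%, 3.9% and 3.12% of all peaks. The sog matches need not be separate, since CACTGAGA and TACACTGA share the letters CACTGA. A and T made up a median of 63.7% of bases at these summits (48.3% to 75.1%) and 65.2% over all peaks. A match is a description of letters and does not show a bound factor.

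Other genes of dorsoventral patterning were counted by the same rules. Of 48 further dorsoventral genes, listed by role, 40 (83.3%) had an IDR peak in the gene or within 10 kb and 13 (27.1%) had a promoter peak, against 67.0% and 21.5% of coding genes. Windows grow with gene length, and some of the 48 are long or lie close together. A share for coding genes of like length was not computed for them, and the difference was not tested. In the maternal and Toll pathway, 6 of 12 had a promoter peak, among them cact, which encodes the inhibitor of Dorsal (987), pll, a kinase gene (475), pip, a sulfotransferase gene (405), spz, the Toll ligand gene (232), and tub, an adaptor gene (216). Of 11 BMP pathway genes only shn, a zinc-finger gene, had one (387), although shn had 17 and Dad, an inhibitory Smad gene, 9 peaks in their windows. Dorsal ectoderm genes had 2 of 9 (348 at Ance and 229 at peb), neuroectoderm and midline genes 1 of 8 (1167 at aos, which encodes a secreted inhibitor of the epidermal growth factor receptor), and mesoderm genes 3 of 8. The last were stumps, an adaptor gene of fibroblast growth factor signalling (870), htl, a receptor gene of that pathway (597), and Mef2, a muscle factor gene (245). Among the 48, ush of the dorsal ectoderm group had the most peaks in its window (21, the highest of signal 6242) but no promoter peak. Mef2 had 10 peaks in its window. bap, which lies beside tin, and tok, beside tld, had 0 IDR peaks in their windows. The tin promoter peak lies just beyond the 10 kb limit of bap.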

How the data were processed

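ChIP-seq for GFP-tagged CG10209 was done in 3 biological replicates of 0 to 24 h embryos, with chromatin of 200 to 800 bp per the labels. The deposited files used are lists of regions (narrowPeak). Column 7 is the authors' signal value, a score of unstated scale, and column 9 is the deposited −log10 q value. Per the file headers and the text deposited beside them, regions were called per replicate and on the pooled replicates with 1 further common file, taken here to be the control, and the IDR list derives from all 4. Aligner, caller and the IDR cut-off used: not given in the sources used here. Only dm6 lists were used. The lists give no read counts, so depth is unknown.

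Genes and starts came from Ensembl release 115 on the 7 chromosome arms (18277 genes, transposable elements left out), and sequence from RefSeq Release 6; 0 regions lay past the end of an arm. Position classes were assigned in the order promoter (500 bp), coding sequence, UTR, other exon, intron, intergenic. A replicate met a peak when a region among its 6307 highest overlapped it by 1 bp, and replicate values are those of the overlapping region with the nearest summit. With 1 group and no second condition, no test was made. Members, lists, motifs and rules were chosen with earlier results of these data known. All 10 genes are named, with their highest peaks and highest regions outside the IDR list, nearest genes, and up to 5 other pathway genes per role with a promoter peak. Counting and motif search were checked on simulated data. Alternatives were other windows, promoter ranges, peak lists and overlaps, and each replicate left out. Python 3.11.15, pandas 2.3.3 and numpy 2.4.6 were used.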

Additional observations from a re-analysis of the deposited data

How the results depend on the processing

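The number of genes with an IDR peak nearby (7 of 10) was 5 to 7 when each replicate was left out in turn, keeping peaks met by top regions of both others, because IDR itself was not rerun. twi and rho were lost without replicate 1 and without replicate 3. The share of all coding genes fell as well, from 67.0% to 60.5%, 56.5% and 53.4% without replicates 1, 2 and 3. The count of peaks (25) was then 19 to 22, the density (69.7 per Mb) 53.0 to 61.3, and the number of genes with a promoter peak 2 throughout, against 17.7%, 15.2% and 14.3% of coding genes. For brk this could not change. Its promoter summit shares an interval with the higher brk summit, and a top region of every replicate met that interval. In replicate 3 the region that met it had its summit 582 bp from the brk start, and none lay within 500 bp. The gene body alone gave 3 genes, against 14.1% of coding genes, with 6 peaks and 37.8 per Mb. A window of 5 kb gave 15 peaks and one of 20 kb gave 39. The IDR peaks above the median signal gave 13 peaks, or 36.2 per Mb, and counting each peak for its nearest start alone, an alternative chosen after seeing the data, also gave 13. Fewer peaks enter genome-wide too when a replicate is left out or only peaks above the median are kept. Genome densities for those shorter lists are not given here, so their densities are not to be set against the 45.9 per Mb of all IDR peaks. The promoter count of 2 became 1 with 250 bp, where brk was lost (16.8% of coding genes), 3 with 1000 bp, where rho was gained (25.1%), and 3 with pooled regions at −log10 q of 2 or more, where vnd was gained (24.6%). With twi measured from its short transcripts, also chosen after seeing the data, the density was 83.9 per Mb with the same 25 peaks. Requiring at least 50% of a peak to be covered left the counts per replicate at 23, 20 and 23, and a summit within 100 bp gave 22, 19 and 20. No paired analysis was possible because there is 1 group. Read depth is unknown, so the lowest values cannot be given an interval.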

Other observations

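Just outside the 10 kb limit, brk had 6 more IDR peaks between 10 and 20 kb away. The highest, of signal 1490.3 (rank 244), lies at an intronic position 781 bp past a start of Dok, and 4 others, of signal 334 to 899, lie upstream of the start of unc-119 at distances of 758 to 3069 bp. The tld locus, with 0 peaks inside the limit, had 1 of signal 1117 (rank 447) at the start of CG13631, 15490 bp from the gene. The nearest such peak to tin, of signal 1312 (rank 315), lies 33 bp from a start annotated for an exon of mod(mdg4). For twi the highest was 546, at the start of CG9890, and for rho 469, near stet, which encodes a rhomboid-family protease. No IDR peak lay within 20 kb of sna or vnd.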
